A study of Mus musculus with 16 samples.

Results

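The genes of iron uptake, storage and export were followed across the 16 libraries of the series, each made from RNA of mouse monocytes. The 10 genes were taken by symbol from the 13085 rows of the deposited table: Tfrc, Steap3, Slc11a2 and Slc11a1 on the side of uptake, Fth1, Ftl1 and Ncoa4 for storage, Slc40a1 for export, and Aco1 and Ireb2 for control. All 10 were in the table and all 10 passed the filter on low values. The question of the study, as its labels give it, is how monocytes of NFAM1+/+ and NFAM1-/- mice answer IFN-γ plus CD40L.

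NFAM1 is a transmembrane receptor of myeloid cells that signals through an ITAM motif. The NFAM1-/- mice are C57BL/6 and carry a deletion of exons 2 and 3 of Nfam1, made with Cas9 in zygotes, and the NFAM1+/+ mice are their wild-type counterparts. The labels call the cells peripheral blood monocytes, while the methods describe monocytes isolated from bone marrow. Cells of each genotype were cultured for 6 or 24 h, unstimulated or exposed to IFN-γ and then to CD40L, given as MegaCD40L, a multimeric form of the ligand of CD40. Labels and methods give different doses of IFN-γ. Because every stimulated library had both agents, their parts cannot be told apart. The libraries at 6 h come in pairs ( 1 and 2 unstimulated NFAM1+/+, 3 and 4 unstimulated NFAM1-/-, 26 and 10 stimulated NFAM1+/+, 11 and 12 stimulated NFAM1-/-). At 24 h there are 4 unstimulated libraries (43 to 46) and 4 stimulated ones (55 to 58), but for 4 of these 8 libraries the title and the genotype tag name different genotypes. The libraries at 24 h were therefore compared by stimulus and time only, and genotypes were compared at 6 h. The study describes several mice of each genotype, but neither its text nor the labels tie a library to a mouse, so p-values measure the spread between these libraries, part of which may be technical.

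Iron enters a monocyte bound to transferrin through the transferrin receptor, encoded by Tfrc, is reduced in the endosome by Steap3 and crosses into the cytosol through DMT1, the product of Slc11a2. Iron that is not used is held in ferritin, a shell of the heavy chain Fth1 and the light chain Ftl1, is released from it when Ncoa4 carries ferritin to the lysosome, and leaves the cell only through ferroportin, the product of Slc40a1. The RNA-binding proteins IRP1 (Aco1) and IRP2 (Ireb2) bind hairpins called iron-responsive elements when iron is scarce, which blocks translation where the hairpin stands before the coding sequence and protects the transcript where it stands after it.

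The hairpins are shown because they are the sites at which the regulators are known to bind the transcripts of these members. The pattern used is strict, and a known element in an isoform of Slc11a2 is not found by it. Translation, which the hairpins before a coding sequence control, is not read by counts of RNA. A pattern was searched on the sense strand of all protein-coding transcripts of GENCODE vM21 (GRCm38): a C, 5 bases, the loop CAGTGN in which the last base is not G, and 5 bases that pair with the first 5, with G-T pairs allowed. The pattern was found in 4 of the 10 members, against 1.28% of the 11442 protein-coding genes of the table. In Fth1, Ftl1 and Slc40a1 it lies in exon 1 in the 5′ UTR, a place it takes in 0.157% of those genes, and in Tfrc it occurs 4 times in exon 19 in the 3′ UTR, where 0.612% of those genes hold it. Of the other iron genes listed here only Alas2 (5′ UTR), the erythroid enzyme that starts heme synthesis, and Bola3 (3′ UTR) had a match. No match says only that these letters are not in the transcripts searched. The sites are given with 6 bases on either side, as DNA on the strand of the transcript, with the loop in capitals.
Fth1 (chr19:9982732-9982760, plus strand): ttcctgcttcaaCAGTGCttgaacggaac
Ftl1 (chr7:45459779-45459807, minus strand): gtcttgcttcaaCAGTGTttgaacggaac
Slc40a1 (chr1:45925465-45925493, minus strand): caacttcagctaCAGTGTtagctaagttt
Tfrc (chr16:32631219-32631247, plus strand): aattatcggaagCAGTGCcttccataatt
Tfrc (chr16:32631598-32631626, plus strand): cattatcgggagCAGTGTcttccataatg
Tfrc (chr16:32631663-32631691, plus strand): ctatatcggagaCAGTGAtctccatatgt
Tfrc (chr16:32631710-32631738, plus strand): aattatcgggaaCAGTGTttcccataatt
The labels name the later build GRCm39 for the authors' alignment, so these positions are those of the reference used here and not of the deposited table. On the same reference the genes of the other members span chr1:120190757-120272705 (Steap3), chr15:100387898-100425072 (Slc11a2), chr1:74375195-74386062 (Slc11a1), chr14:32159865-32179855 (Ncoa4), chr4:40143081-40198338 (Aco1) and chr9:54863789-54912530 (Ireb2).

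The deposited values are log2 CPM, where CPM are reads relative to a scaled library size, and are given below as unlogged CPM unless a log2 value is named. A gene was called where the fold change was at least 2 and the Benjamini-Hochberg adjusted p of limma, over all genes tested, was under 0.05. Differences past the adjusted p but under 2-fold are given with their values and are not counted as called. Depth ranged from 48295939 to 88514341 reads on table genes per library, and the member with the fewest reads was Steap3 in stimulated cells at 6 h, with 14 to 26 reads. Nfam1 itself, counted over the whole gene with its undeleted exons, was at 408 and 432 CPM in the unstimulated NFAM1+/+ libraries at 6 h and at 299 and 321 CPM in the NFAM1-/- ones, but at 129 and 133 against 127 and 134.6 CPM with the stimulus, where the genotypes overlapped. All 10 monocyte markers were detected in each time and stimulus, and their summed level was 22982 to 25159 CPM without and 9096 to 11149 CPM with the stimulus at 6 h, and 26742 to 30750 CPM without and 9010 to 12241 CPM with it at 24 h. Lyz2 alone made up 15690 to 17380 CPM of that sum without and 2667 to 4159 CPM with the stimulus at 6 h. Of the 10, 2 were called higher and 6 lower at 6 h in NFAM1+/+ cells, where 2369 and 2438 of all 12111 genes were. In NFAM1-/- cells 2 were called higher and 5 lower, beside 2282 and 2352 of all genes. The 10 neutrophil markers summed to 94.6 to 337 CPM at 6 h, to 545 to 959 CPM in unstimulated and to 100.45 to 174 CPM in stimulated libraries at 24 h. In bulk RNA fewer cells of a type and less RNA per cell cannot be told apart.

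The scaling bears on every comparison with the stimulus. The reads of a library divided by its scaled size were 0.756 to 0.788 without the stimulus at either time, 1.24 to 1.32 with it at 6 h and 0.97 to 0.997 with it at 24 h. With CPM of the total reads of a library instead (called total-read scaling below), the median log2 change of all genes with the stimulus moved from -0.11 to -0.84 at 6 h in NFAM1+/+ cells, from -0.10 to -0.84 in NFAM1-/- cells, and from 0.02 to -0.32 at 24 h. The share of called genes that were higher went from 49.3% to 22.6% at 6 h in NFAM1+/+ and from 49.2% to 22.1% in NFAM1-/- cells, and from 44.5% to 30.7% at 24 h. For 24 h against 6 h with the stimulus the median moved from 0.04 to 0.42 and the share from 49.3% to 69.7% (38.7% with centring on medians), and for the difference of the responses between the times from 0.05 to 0.45 and from 42.6% to 68.1%. Directions that this scaling turns are named beside the gene.

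**Figure D1:**
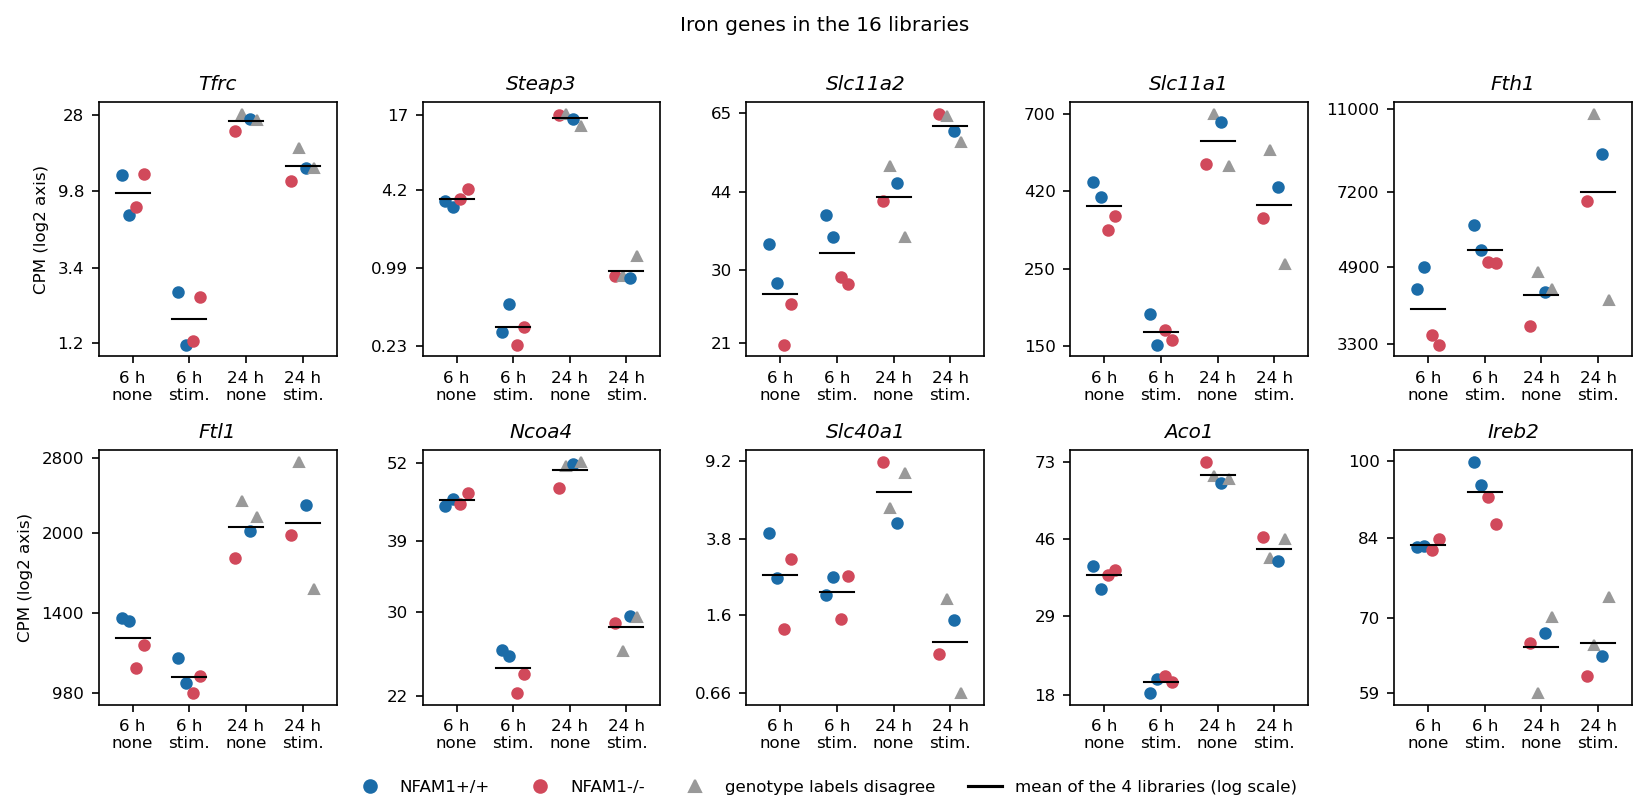
CPM of the 10 iron genes in each of the 16 libraries, on log2 axes, by time and stimulus ("stim." is IFN-γ plus CD40L). Circles are libraries labelled NFAM1+/+ (blue) or NFAM1-/- (red), grey triangles are libraries whose genotype labels disagree, and bars are means of 4 libraries on the log scale. Tfrc and Steap3 lie lower with the stimulus at both times, and Slc40a1 separates by stimulus at 24 h but not at 6 h.

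Per kilobase of exon the 2 ferritin chains stood far above the other members. Fth1 was at 1155 ± 222 CPM per kb (SD, n = 4) and Ftl1 at 937 ± 95.8 CPM per kb in unstimulated cells at 6 h, followed by Slc11a1 at 103 ± 14.3 CPM per kb. Ireb2, Aco1, Ncoa4 and Slc11a2 lay between 4.26 and 8.71 CPM per kb on average, Tfrc at 1.59 ± 0.45, Steap3 at 0.628 ± 0.0898 and Slc40a1 at 0.303 ± 0.126. The libraries of Fth1 and Ftl1 overlapped on this scale, and over the length of the principal transcript Fth1 averaged 2682 and Ftl1 1297 CPM per kb. In unstimulated cells at 24 h their order turned with the length used, with Ftl1 at 1545 and Fth1 at 1228 CPM per kb of exon, but Fth1 at 2852 and Ftl1 at 2139 CPM per kb of principal transcript. Fth1 alone took 0.435% to 0.633% of all reads in unstimulated cells at 6 h. Ferritin has processed copies in the genome, and Fth-ps3 was counted at 0.843 to 23.1 CPM and Ftl1-ps1 at 4.51 to 22.9 CPM over the 16 libraries. The levels of Fth1 and Ftl1 are uncertain as far as the counting split reads between gene and copy. Exons of Ftl1 also overlap Gm10252, and exons of Slc11a2 overlap Gm5475, both on the other strand, and the libraries did not keep strand.

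With IFN-γ plus CD40L for 6 h, 3 of the 10 genes were called in NFAM1+/+ cells, all lower, and the same 3 in NFAM1-/- cells: Tfrc, Steap3 and Slc11a1. Of all 12111 genes tested, 39.7% were called in NFAM1+/+ and 38.3% in NFAM1-/- cells, and 20.1% and 19.4% were called lower. Past the adjusted p alone there were 8 members (2 higher, 6 lower) in NFAM1+/+ and 6 (1 higher, 5 lower) in NFAM1-/- cells, where 71.4% and 70.4% of all genes passed. The median log2 fold change of the members was -0.65 and -0.55, beside -0.11 and -0.10 over all genes. The share of members called was not above that of the whole table. In both genotypes with the same sign, 16.7% of all genes were called lower and 17.6% higher.

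Tfrc, the receptor that takes up transferrin, was at 12.1 and 7.0 CPM in NFAM1+/+ and at 7.83 and 12.3 CPM in NFAM1-/- cells without the stimulus. With it, Tfrc was at 2.45 and 1.18 CPM in NFAM1+/+ and at 1.24 and 2.27 CPM in NFAM1-/- cells. All 4 stimulated libraries lay below all 4 unstimulated ones. The log2 fold change was -2.44 (SE 0.44, adjusted p = 0.000824) in NFAM1+/+ and -2.55 (SE 0.44, adjusted p = 0.000647) in NFAM1-/- cells, which is 5.42-fold and 5.85-fold lower.

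Steap3, the reductase of the endosome, changed most in size, from 3.09 and 3.44 CPM to 0.301 and 0.499 CPM in NFAM1+/+ and from 3.53 and 4.30 CPM to 0.235 and 0.324 CPM in NFAM1-/- cells. The log2 fold change was -3.07 (SE 0.41, adjusted p = 0.000107) and -3.82 (SE 0.41, adjusted p = 2.56e-05). Steap3 passed the filter of at least 1 CPM at 6 h through its unstimulated libraries only. Slc11a2, the DMT1 transporter that receives the reduced iron, did not pass in either genotype: it was at 34.1 and 28.2 CPM without and 39.3 and 35.4 CPM with the stimulus in NFAM1+/+ cells, and at 20.8 and 25.4 against 29.0 and 28.0 CPM in NFAM1-/- cells. Its log2 fold changes were 0.27 (SE 0.13, adjusted p = 0.0931) and 0.31 (SE 0.13, adjusted p = 0.0578), and turned to -0.46 and -0.42 with total-read scaling.

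Slc11a1, which encodes NRAMP1, the transporter that moves iron out of the phagosome, was at 444 and 402 CPM in NFAM1+/+ and at 324 and 355 CPM in NFAM1-/- cells without the stimulus. With it, the level was 185 and 151 CPM in NFAM1+/+ and 167 and 156 CPM in NFAM1-/- cells. No stimulated library reached an unstimulated one, and the narrow spread gave small errors: the log2 fold change was -1.34 (SE 0.11, adjusted p = 3.07e-06) and -1.07 (SE 0.11, adjusted p = 1.46e-05). Centring each library on its median left -0.91 in NFAM1-/- cells, under the 2-fold line.

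The 2 chains of ferritin parted. Fth1 went from 4380 and 4907 CPM to 6080 and 5348 CPM in NFAM1+/+ and from 3452 and 3286 CPM to 5035 and 5006 CPM in NFAM1-/- cells, so that every stimulated library lay above every unstimulated one on the deposited scale. The log2 fold change was 0.30 (SE 0.11, adjusted p = 0.0297) and 0.58 (SE 0.11, adjusted p = 0.000959), but its direction rests on the scaling: it was -0.43 and -0.16 with total-read scaling and -0.77 and -0.59 with quantile normalization. As a share of all reads Fth1 was at 0.435% to 0.633% without and 0.395% to 0.462% with the stimulus at 6 h. Ftl1 was at 1367 and 1351 against 1145 and 1024 CPM in NFAM1+/+ cells (log2 fold change -0.33, SE 0.09, adjusted p = 0.00873), and at 1094 and 1212 against 979 and 1058 CPM in NFAM1-/- cells, where it missed the threshold (-0.18, SE 0.09, adjusted p = 0.103). With quantile normalization the values for Ftl1 were -1.46 and -1.30 and would be called. The ratio of Fth1 to Ftl1 within a library does not depend on the scaling to a library size. On the log2 scale it was 1.44 to 1.86 in the 4 unstimulated and 2.24 to 2.41 in the 4 stimulated libraries, and the groups did not overlap.

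Ncoa4, the receptor that delivers ferritin to the lysosome, was at 44.5 and 45.7 against 26.1 and 25.5 CPM in NFAM1+/+ and at 44.8 and 46.5 against 22.3 and 23.9 CPM in NFAM1-/- cells. It was lower in every stimulated library, with a log2 fold change of -0.80 (SE 0.09, adjusted p = 2.49e-05) and -0.99 (SE 0.09, adjusted p = 6.28e-06), short of 2-fold. Without library 3 or library 12 the second value was -1.01 and -1.04 and would be called. With total-read scaling the values for Ncoa4 were -1.53 and -1.72, and both were called. Slc40a1, the exporter, was low throughout and overlapped between the groups: it was at 4.08, 2.45, 1.36 and 3.04 CPM in libraries 1 to 4 and at 2.01, 2.48, 1.53 and 2.51 CPM in libraries 26, 10, 11 and 12. Its log2 fold changes of -0.50 (SE 0.44) and -0.06 (SE 0.44) have 95% intervals of -1.49 to 0.49 and -1.05 to 0.94, both of which hold a 2-fold decrease, and the second value was 0.10 with centring on medians and 0.52 and 0.30 without library 4 or library 11. The first value was -1.23 and called with total-read scaling.

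Of the 2 regulators, the RNA of Aco1 was lower with the stimulus in both genotypes. It was at 39.1 and 34.1 against 18.3 and 19.9 CPM in NFAM1+/+ and at 37.0 and 38.1 against 20.2 and 19.5 CPM in NFAM1-/- cells, a log2 fold change of -0.94 (SE 0.10, adjusted p = 3.12e-05) and -0.92 (SE 0.10, adjusted p = 3.7e-05). Without library 2 the first was -1.04 and would be called. With total-read scaling the values for Aco1 were -1.67 and -1.65, and both were called. Ireb2 was at 82.3 and 82.4 against 99.8 and 94.7 CPM in NFAM1+/+ and at 81.7 and 83.8 against 92.1 and 86.6 CPM in NFAM1-/- cells. This is a log2 fold change of 0.24 (SE 0.07, adjusted p = 0.0135) and 0.11 (SE 0.07, adjusted p = 0.197), and the sign turned with total-read scaling (-0.49 and -0.62) and with quantile normalization (-0.12 and -0.24).

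**Figure D2:**
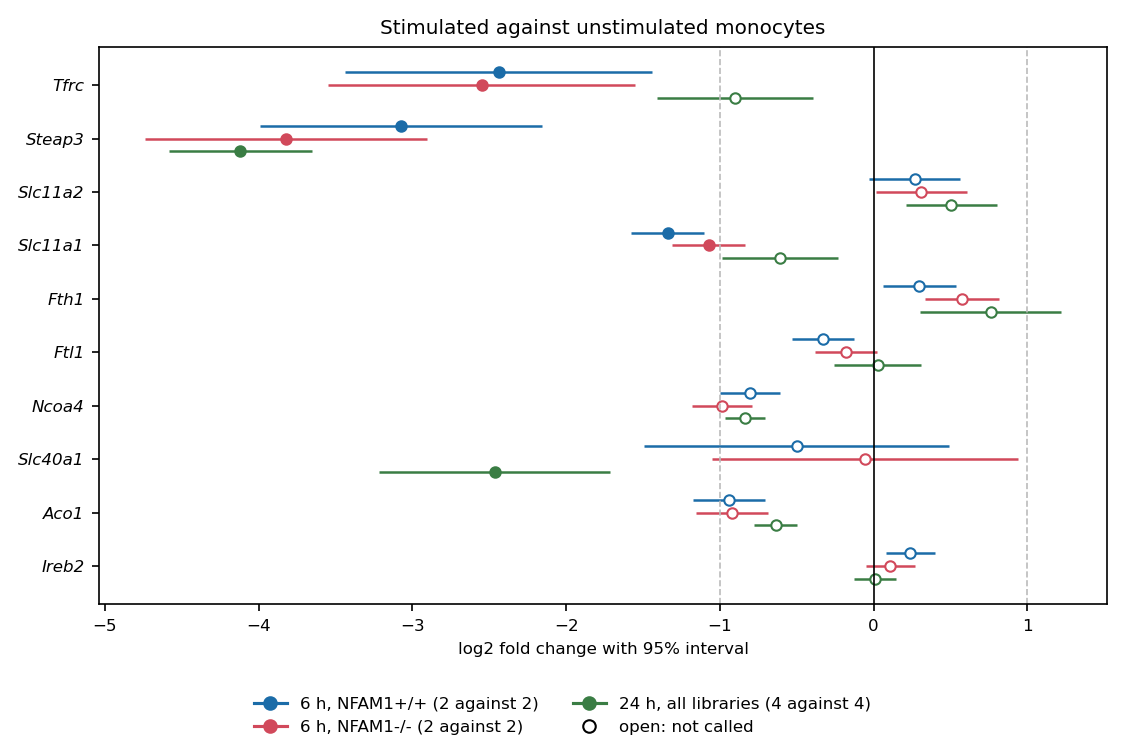
Log2 fold changes of the 10 iron genes with IFN-γ plus CD40L, with 95% intervals from limma, at 6 h in each genotype and at 24 h over all libraries. Filled points are called, dashed lines mark a 2-fold change, and the 2 genotypes lie side by side for each gene at 6 h while Tfrc and Slc40a1 change places at 24 h.

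The genotypes were compared at 6 h in each stimulus. No iron gene was called between NFAM1-/- and NFAM1+/+ cells, where 0.0661% of all genes were called without and 0.033% with the stimulus. At an unadjusted p under 0.05 there were 4 members without the stimulus, all lower in NFAM1-/- cells, and 1 with it, among 1058 and 1522 of all genes. The 4 were Fth1 (log2 difference -0.46, SE 0.11, adjusted p = 0.198), Slc11a2 (-0.43, SE 0.13, adjusted p = 0.36), Slc11a1 (-0.32, SE 0.11, adjusted p = 0.396) and Ftl1 (-0.24, SE 0.09, adjusted p = 0.482). Both NFAM1-/- libraries lay below both NFAM1+/+ libraries in each of these 4 genes, which were picked by p in this same comparison. That separation therefore adds nothing to the p-values. With the stimulus Slc11a2, the 1 member picked there, differed by -0.39 (SE 0.13, adjusted p = 0.336), with both NFAM1-/- libraries again the lower, and Fth1 by -0.18 (SE 0.11, adjusted p = 0.493). A genotype effect shared by both stimuli, fitted after these values were seen, gave -0.41 for Slc11a2 (SE 0.09, adjusted p = 0.128) and -0.32 for Fth1 (SE 0.08, adjusted p = 0.195).

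No member, and no gene of the table, was called for a difference between genotypes in the response to the stimulus (0% called by limma, smallest adjusted p = 0.209, 846 genes at an unadjusted p under 0.05). For Tfrc the difference of the responses was -0.11 with a 95% interval of -1.52 to 1.30, for Steap3 -0.75 (-2.05 to 0.55), for Slc11a1 0.27 (-0.07 to 0.60) and for Fth1 0.28 (-0.06 to 0.62). The intervals of Tfrc and Steap3 are wide enough to hold a 2-fold difference of the responses, and those of Slc11a1 and Fth1 are not.

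At 24 h only 1 library per genotype and stimulus has labels that name 1 genotype, so the values stand without a test. Between the unstimulated libraries 43 (NFAM1-/-) and 45 (NFAM1+/+), 1 member lay past 2-fold, Slc40a1 at 9.15 and 4.54 CPM, where 3.62% of all genes did. Between the stimulated libraries 55 and 57 it was at 1.03 and 1.51 CPM, and none of the members lay past 2-fold, against 3.36% of all genes. Fth1 was at 3612 CPM in library 43 and 4298 in library 45, and at 6859 CPM in library 55 and 8768 in library 57. With the genotype read from the titles, Fth1 with the stimulus was lower in NFAM1-/- cells by a log2 difference of -0.87 (SE 0.21, adjusted p = 0.08), and with the genotype tags it was higher, by 0.51 (SE 0.36, adjusted p = 0.999). Slc40a1 with the stimulus was at -1.04 (SE 0.27, adjusted p = 0.0872) by title and 0.50 (SE 0.51, adjusted p = 0.999) by tag, and Slc11a1 at -0.69 (SE 0.14, adjusted p = 0.0548) and 0.39 (SE 0.30, adjusted p = 0.999). No member passed the adjusted p under either reading. Of all 12164 genes tested there, 27 without and 14 with the stimulus were called by title, and 1 and 0 by tag. Library 58, the lowest of the stimulated libraries at 24 h for Fth1, is one of the 4 with labels that disagree.

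After 24 h with the stimulus, 2 of the 10 genes were called, Steap3 and Slc40a1, both lower, where 32.7% of all 12306 genes were called and 18.2% were called lower. At the adjusted p alone 8 members passed (2 higher, 6 lower), where 74.3% of all genes did, and the members' median log2 fold change was -0.62 beside 0.02 over all genes. Steap3 was at 17, 17.5, 15.9 and 14 CPM in libraries 43 to 46 and at 0.85, 0.843, 0.817 and 1.24 CPM in libraries 55 to 58. The groups stood 17.4-fold apart, a log2 fold change of -4.12 (SE 0.22, adjusted p = 2.02e-11). Steap3 passed the filter of 1 CPM in 4 or more libraries through its unstimulated libraries. Of the stimulated libraries at either time only library 58 reached 1 CPM.

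Slc40a1, encoding the only known exporter of iron, was at 9.15, 5.41, 4.54 and 8.09 CPM without and at 1.03, 1.92, 1.51 and 0.659 CPM with the stimulus. Every stimulated library lay below every unstimulated one, and the log2 fold change was -2.46 (SE 0.36, adjusted p = 7.38e-06). The difference from the response at 6 h was -2.19 (SE 0.50, adjusted p = 0.00104), called at the same thresholds. Neutrophil markers moved in the same direction at 24 h: 9 of the 10 were called lower with the stimulus, 6 of the 10 monocyte markers were called lower and 1 higher (Ly6c2, from 446 to 530.2 CPM without to 2125 to 2965 CPM with the stimulus, named after its values were seen), and all 5 erythroid markers tested were called lower. All 6 erythroid markers in the table averaged under 1 CPM in stimulated cells at 24 h. Those tested passed the filter of 1 CPM mainly through groups where they are higher, so the filter favours this direction. The part of these cell markers in the change of Slc40a1 and Steap3 was not tested.

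Tfrc was still lower at 24 h but by less: it was at 22.3, 28.3, 26.5 and 26.1 CPM without and at 11.2, 17.7, 13.5 and 13.5 CPM with the stimulus. The groups did not overlap, and the log2 fold change was -0.90 (SE 0.24, adjusted p = 0.00275), which is 1.87-fold lower. Without library 56 it was -1.02 and would be called, and with total-read scaling it was -1.23 and called. The decrease of Tfrc was smaller at 24 h than at 6 h. The response at 24 h minus that at 6 h was 1.59 on the log2 scale (SE 0.34, adjusted p = 0.000561), and this difference was called. Slc11a1 was at 502, 701, 662 and 495 CPM without and 350, 549, 431 and 258 CPM with the stimulus, a log2 fold change of -0.61 (SE 0.18, adjusted p = 0.00547) between groups that overlapped, which was -1.10 and called with quantile normalization. Slc11a2 was at 42.1, 50.002, 46 and 35.4 against 64.8, 64.0, 59.6 and 56.3 CPM, with no overlap and a log2 fold change of 0.51 (SE 0.14, adjusted p = 0.00354), which was 0.17 (adjusted p = 0.257) with total-read scaling.

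Fth1 at 24 h was at 3612, 4764, 4298 and 4367 CPM without and at 6859, 10753, 8768 and 4128 CPM with the stimulus. Of the 4 stimulated libraries 3 lay above all unstimulated ones, and library 58 lay among them. The log2 fold change was 0.76 (SE 0.22, adjusted p = 0.00442), it was 1.03 without library 58, which would be called, and it was 0.43 (adjusted p = 0.0698) with total-read scaling. Ftl1 overlapped between the groups at 1790 to 2318 CPM without and 1558 to 2757 CPM with the stimulus, with a log2 fold change of 0.03 (SE 0.13, adjusted p = 0.869) whose sign turned to -0.31 with total-read scaling and -0.68 with quantile normalization. The log2 ratio of Fth1 to Ftl1 was 1.01 to 1.09 without and 1.41 to 1.96 with the stimulus, again with no overlap. Library 58 was also the lowest of the stimulated libraries for Slc11a1, Ftl1 and Slc40a1, and the highest for Ireb2 and Steap3.

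Ncoa4 was lower at 24 h as well, at 47.5 to 52.3 CPM without and 26.0 to 29.6 CPM with the stimulus, a log2 fold change of -0.84 (SE 0.06, adjusted p = 1.74e-09). Its value with total-read scaling was -1.17 and called. Aco1 was at 64.0 to 72.9 against 40.3 to 46.5 CPM, a log2 fold change of -0.64 (SE 0.07, adjusted p = 1.52e-07). In both genes the groups were apart by more than their spread. Ireb2 did not differ beyond its spread, at 59.0 to 70.1 against 61.4 to 73.4 CPM, with a log2 fold change of 0.01 (SE 0.06, adjusted p = 0.889) that was -0.32 with total-read scaling and -0.18 with quantile normalization.

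**Figure D3:**
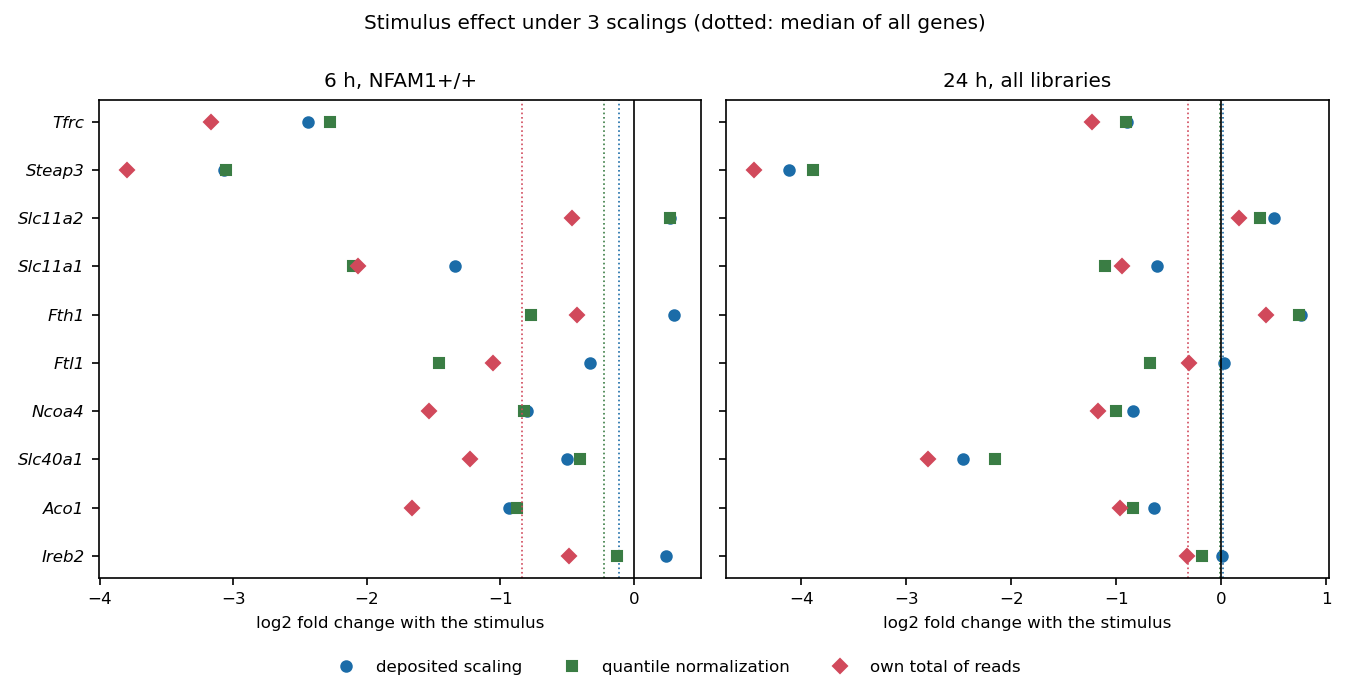
Log2 fold changes of the 10 iron genes with the stimulus on the deposited scale (circles), after quantile normalization (squares) and with total-read scaling (diamonds, "own total of reads"), at 6 h in NFAM1+/+ cells and at 24 h. Dotted lines are the medians of all genes, and the points of Slc11a2, Fth1 and Ireb2 at 6 h lie on either side of 0 depending on the scaling while those of Tfrc, Steap3, Slc11a1, Ncoa4 and Aco1 stay below it.

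Time in culture moved the members mostly upward. Without the stimulus 3 genes were called at 24 h against 6 h, Steap3, Tfrc and Slc40a1, all higher, where 20.4% of all genes were called and 12.8% called higher. At the adjusted p alone 9 members passed (8 higher, Ireb2 lower), where 62.9% of all genes did, and the members' median log2 change was 0.70 beside 0.04 over all genes. The log2 change was 2.17 for Steap3 (SE 0.22, adjusted p = 2.4e-07), 1.44 for Tfrc (SE 0.24, adjusted p = 6.3e-05) and 1.37 for Slc40a1 (SE 0.36, adjusted p = 0.00302), and in all 3 every library at 24 h lay above every library at 6 h. Aco1 (0.86, SE 0.07), Ftl1 (0.72, SE 0.13), Slc11a2 (0.69, SE 0.14) and Slc11a1 (0.62, SE 0.18) were higher without reaching 2-fold. Neutrophil markers were higher over the same time, 8 of the 10 called, and their part in these changes was not tested. Fth1 did not pass, with a log2 change of 0.10 (SE 0.22, adjusted p = 0.702) that was -0.0041 without the 4 libraries whose labels disagree.

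With the stimulus 4 genes were called at 24 h against 6 h, Tfrc, Steap3, Slc11a1 and Aco1, all higher, where 33.2% of all genes were called and 16.3% called higher. At the adjusted p alone 9 members passed (7 higher, 2 lower), where 75.6% of all genes did, and the median was 0.95 beside 0.04 over all genes. Tfrc went from 1.18 to 2.45 CPM at 6 h to 11.2 to 17.7 CPM at 24 h, a log2 change of 3.03 (SE 0.24, adjusted p = 4.28e-09). The log2 change was 1.5 for Steap3 (SE 0.22), 1.22 for Slc11a1 (SE 0.18) and 1.16 for Aco1 (SE 0.07), the last at 0.99 and no longer called when libraries were centred on their medians or normalized by quantiles. Ftl1 stood just under the line at 0.999 (SE 0.13, adjusted p = 3.16e-06), and was called without library 26 (1.04), 12 (1.00), 55 (1.03) or 58 (1.14). Slc40a1 and Ireb2 were lower, by -0.82 (SE 0.36, adjusted p = 0.0451) and -0.50 (SE 0.06, adjusted p = 1.99e-06), and Slc40a1 was at -1.05 and called without library 56. Proliferation markers fell between the times, all 6 called lower without and with the stimulus, where 933 and 2071 of all 12306 genes were. Any difference in handling between the times cannot be told apart from time.

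The response at 24 h against that at 6 h, the interaction of time and stimulus, was called for 2 members, where 31.6% of all genes were called. These were Tfrc (difference above 0, a smaller decrease at 24 h) and Slc40a1 (difference below 0). At the adjusted p alone Slc11a1 (0.60, SE 0.25, adjusted p = 0.0461) and Aco1 (0.29, SE 0.09, adjusted p = 0.0112) passed too, where 66.4% of all genes did. The medians were 0.25 for the members and 0.05 for all genes. For Steap3 the difference was -0.67 (SE 0.31, adjusted p = 0.067) and for Fth1 0.32 (SE 0.31, adjusted p = 0.363). The value for Fth1 ranged from 0.13 without library 56 to 0.59 without library 58 and was 1.40 and called with quantile normalization.

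**Figure D4:**
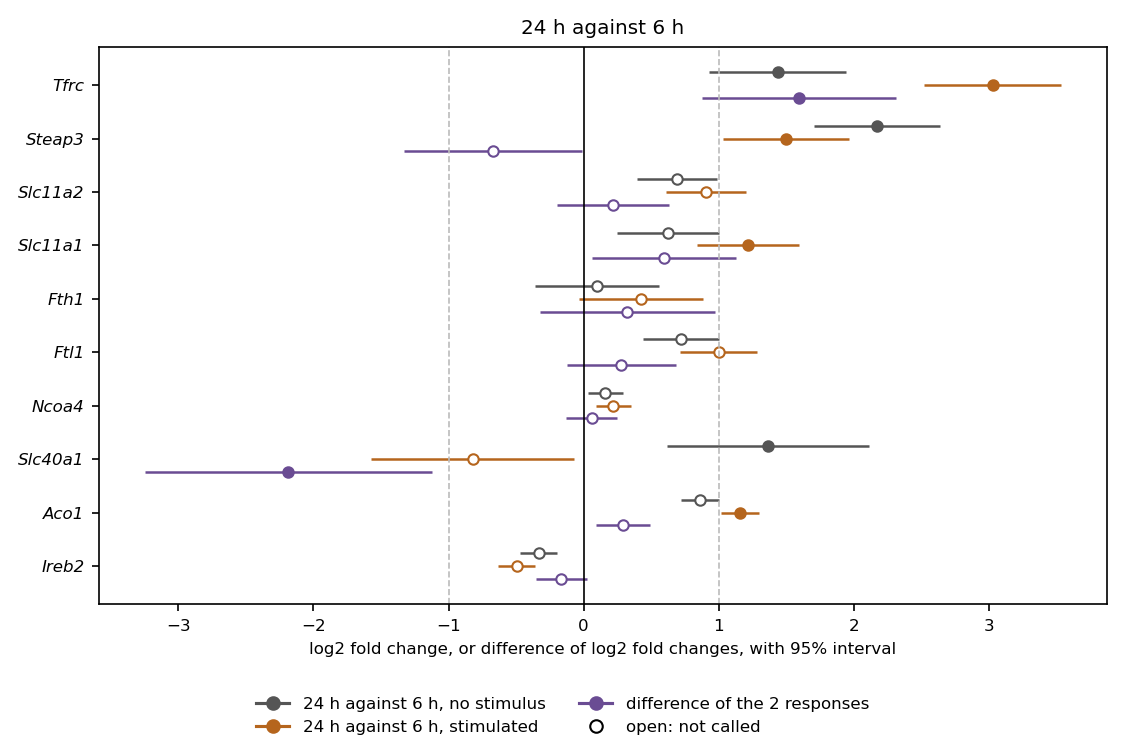
Log2 changes of the 10 iron genes from 6 to 24 h without and with the stimulus, and the difference between the response at 24 h and at 6 h, with 95% intervals from limma over 16 libraries. Filled points are called and dashed lines mark a 2-fold change. For Tfrc the change over time is larger with the stimulus, and for Slc40a1 the changes over time point in opposite directions.

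Other genes of iron handling, taken from lists made for this report, moved with the stimulus as follows, with SEs of the log2 fold changes named at 6 h between 0.0675 and 0.445. The counts below stand beside 17.6% of all genes called higher and 16.7% called lower in both genotypes at 6 h. Counts and values of these lists, here and in the next paragraph, are given on the deposited scale only. Total-read scaling moved the median of all genes from -0.11 to -0.84 at 6 h in NFAM1+/+ cells. Of 9 genes of iron transport and reduction tested at 6 h, 2 were called higher and 1 lower in both genotypes: Cp, the ferroxidase ceruloplasmin, from 2.02 to 6.04 CPM without to 22.2 to 25.5 CPM with the stimulus (log2 fold change 2.61 in NFAM1+/+ and 3.24 in NFAM1-/- cells), the mitochondrial iron carrier Slc25a37 (1.52 and 1.31), and the zinc and iron importer Slc39a14 (-1.16 and -1.23). Of 9 genes of iron chaperones and control, 2 were called higher and 1 lower in both genotypes. Fbxl5, the iron-sensing subunit of the ligase that degrades IRP2, went from 73.8 to 82.6 CPM to 223 to 250.2 CPM (1.59 and 1.63), Hif1a was higher (1.36 and 1.28), and Hfe, which binds the transferrin receptor, went from 62.9 to 76.2 CPM to 3.31 to 10.5 CPM (-4.06 and -2.90). At 24 h the log2 fold change was 2.97 for Fbxl5, 2.48 for Slc25a37, 1.46 for Hif1a, 1.22 for Cp and -4.25 for Hfe, all called, while Slc39a14 was at -0.21 (SE 0.20, adjusted p = 0.356) and not called.

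Of 19 heme genes tested at 6 h, 8 were called lower, 2 higher and 9 not in both genotypes, where 16.7% of all genes were called lower and 17.6% higher. Their median log2 fold change was -1.01 in NFAM1+/+ and -0.92 in NFAM1-/- cells, beside -0.11 and -0.10 over all genes. Among them were Cd163, the receptor for hemoglobin bound to haptoglobin (-2.87 and -2.73) and haptoglobin itself (Hp, -2.10 and -1.46), while the biliverdin reductase Blvrb was higher (2.06 and 2.35). Of 26 genes of iron-sulfur cluster assembly 6 were called lower and 0 higher in both genotypes at 6 h, beside the same 16.7% and 17.6% of all genes. The largest changes were those of Ndor1 (-1.76 and -1.78), Glrx5 (-1.89 and -1.32), Fdx1l (-1.69 and -1.41) and Fam96a (-1.53 and -1.39). At 24 h 1 gene of that list was called lower and 2 higher, where 2237 and 1791 of all 12306 genes were. The median log2 fold change of the list was 0.14 beside 0.02 over all genes. The 6 erythroid markers found in the table summed to 4.43 to 17.2 CPM without and 9.01 to 49.2 CPM with the stimulus at 6 h, the highest in library 26. Of these 6, 5 were called higher in NFAM1+/+ cells and 0 in NFAM1-/- cells, where 2369 and 2282 of all 12111 genes were. At 6 h 4 of the 6 averaged under 1 CPM without the stimulus and 0 with it. The filter of 1 CPM therefore favours the higher direction here. None of the 6 was called for a difference between the genotypes in the response. Their part in the counts of the heme list was not tested.

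The genes whose pattern over the 16 libraries lay nearest to each member were found from log2 values centred on each gene's mean, with the root mean square difference as the measure of likeness. Aco1 lay nearest to Foxo3 (0.0824) and Fto (0.12), beside a spread of its own of 0.647 on the log2 scale. Ireb2 lay nearest to Gabpb2 (0.0634), Ftl1 to Mgat4b (0.121) and Tmem189 (0.136), and Ncoa4 to Tmem57 (0.112) and Zfp706 (0.114). The members with the wider spread had looser neighbours: Steap3 (spread 2.12) lay at 0.359 from Sort1 and 0.412 from Pltp, Tfrc (1.49) at 0.355 from Vegfa and 0.375 from Tnfsf12, and Slc40a1 (1.01) at 0.454 from Cnksr3 and 0.47 from Aldh2. Slc11a1 was nearest to Fbf1 (0.199) and Colgalt1 (0.212), Slc11a2 to Vti1a (0.161) and Klc2 (0.193), and Fth1 to Ubap1 (0.201) and Spryd7 (0.22).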

How the data were processed

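RNA of 16 monocyte libraries was sequenced by the authors from non-stranded polyadenylated RNA, aligned with STAR to the mouse genome (GRCm39, mm39 per the labels), counted per gene with Rsubread and normalized with edgeR. The authors deposited log2 CPM for 13085 genes, and 100% of values match a whole number of reads within 0.1 reads, from which totals per library were computed. Versions of these tools are not given in the sources used here. Of the symbols 17 appear as dates and 1 is repeated.

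The deposited log2 values were fitted with limma 3.58.1 in R 4.3.3, with a prior variance that follows mean expression. The 8 libraries at 6 h formed 4 groups of genotype and stimulus (12111 genes reached 1 CPM in 2 or more libraries, 974 were left out). All 16 libraries formed 4 groups of time and stimulus (1 CPM in 4 or more libraries, 12306 kept, 779 left out), with genotype ignored because the labels of 4 libraries disagree. Thresholds were those of the study, 2-fold or more with an adjusted p (Benjamini-Hochberg) under 0.05, while its precision weights were run as an alternative. In simulated data with 200 inserted changes of 2 on the log2 scale, 93.5% were called for the stimulus at 6 h in NFAM1+/+ (2 false, 11579 genes) and 99.5% for the stimulus at 24 h (2 false, 11592 genes). Changes were inserted only in genes with a mean log2 value above 1, and all other genes were left unchanged. The rates therefore do not cover Steap3 at 6 h, whose mean log2 CPM was 1.83 without and -1.61 with the stimulus.

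The members and the lists of other iron genes and cell markers were chosen with earlier results of these data known. All 10 members are named. From each other list up to 4 genes are named, those called at 6 h in both genotypes with the same sign and the largest mean change. For each member the 2 nearest patterns among genes with a mean of at least 5 CPM are given. Of the genes these rules name, 2 are not reported here. Exon lengths, positions and transcripts are from GENCODE vM21 (GRCm38), a build other than that of the alignment. Alternatives were other filters, scalings, weights and prior variances, no minimum fold, limma's treat against a fold of 1.2, fits of only the groups compared, genotype terms and leaving out each library. A genotype effect common to both stimuli was added after the values were seen.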

Additional observations from a re-analysis of the deposited data

Results flagged for a closer look

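In 4 genes the response to the stimulus differed between the times by the interaction of time and stimulus (limma, adjusted p under 0.05). The response at 24 h minus the response at 6 h was 1.59 for Tfrc, -2.19 for Slc40a1, 0.60 for Slc11a1 and 0.29 for Aco1 on the log2 scale. The difference for Tfrc was above 0 and that for Slc40a1 below 0 under each scaling and without each library in turn.

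In 2 of 40 groups of 4 libraries 1 library stood apart from the other 3, and chance alone marks about 1 group in 20. Steap3 was at 1.24 CPM in library 58 and at 0.817 to 0.85 CPM in the other stimulated libraries at 24 h, a gap of 0.903 of the group's range on the log2 scale. Ncoa4 was at 47.5 CPM in library 43 and at 51.5 to 52.3 CPM in the other unstimulated libraries at 24 h, a gap of 0.841 of the range.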

How the results depend on the processing

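No iron gene was called between the genotypes at 6 h or in their interaction under any alternative run. With the stimulus at 6 h the count of called iron genes in NFAM1+/+ cells went from 3 to 7 with total-read scaling, 8 with no minimum fold and 5 with treat, and in NFAM1-/- cells from 3 to 5 with quantile normalization or total-read scaling, 6 with no minimum fold, 6 with treat and 2 with centring on medians. A mean of at least 5 CPM gave 2 in either genotype. At 24 h it went from 2 to 4 with total-read scaling, 8 with no minimum fold, 6 with treat and 1 with a mean of at least 5 CPM, a filter that leaves out Slc40a1. At 24 h against 6 h it went from 3 to 9 and 6 without and from 4 to 9 and 7 with the stimulus, with no minimum fold and with treat, and with the stimulus to 3 with centring and 6 with total-read scaling, and for the interaction with time from 2 to 4 with no minimum fold and 1 with a mean of at least 5 CPM. Between single libraries at 24 h, 1 gene lay past 2-fold without the stimulus and 0 with it, and reading the genotype from titles gave 0 and 1, from tags 0 and 0. Leaving out each library gave 3 to 4 with the stimulus at 6 h in either genotype, 2 to 3 at 24 h, 3 to 3 and 4 to 5 for 24 h against 6 h without and with it, 2 to 2 for the interaction with time and 0 to 0 between genotypes. Of the alternatives for single genes, 1561 kept direction and call, 70 gained a call, 3 lost one and 27 changed sign. For the stimulus at 6 h quantile normalization and total-read scaling turned Fth1 to -0.77 and -0.43 in NFAM1+/+ and to -0.59 and -0.16 in NFAM1-/- cells, and Ireb2 to -0.12 and -0.49 and to -0.24 and -0.62. Total-read scaling turned Slc11a2 to -0.46 and -0.42, and centring on medians turned Slc40a1 in NFAM1-/- cells to 0.10, with -0.63 to 0.52 as libraries were left out. For the stimulus at 24 h the same 2 scalings turned Ftl1 to -0.68 and -0.31 and Ireb2 to -0.18 and -0.32, without the 4 libraries whose labels disagree Ireb2 was -0.091, and leaving out 1 library gave -0.11 to 0.17 for Ftl1 and -0.040 to 0.046 for Ireb2. Without those 4 libraries Fth1 at 24 h against 6 h unstimulated was -0.0041. For the interaction with time, total-read scaling turned Ireb2 to 0.23, and quantile normalization and centring turned Ncoa4 to -0.11 and -0.083. The cause of these changes was not tested. No paired analysis was possible because neither the study's text nor the labels tie a library to a mouse. Depth limits Steap3 with the stimulus at 6 h, at 14 to 26 reads a library. Count models on the recovered reads were not run.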
